A study of Danio rerio with 6 samples.

Results

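The profile described here is that of unablated leukocytes in the zebrafish larval kidney. It rests on 3 of the 6 libraries of the study, the DMSO libraries, which were taken by their label alone. The larvae carried the transgene Tg(coro1a:DenNTR), in which the coro1a promoter drives Dendra2, a fluorescent protein that violet light turns from green to red, fused to NTR. The labels give their genotype as WT, their tissue as kidney and their age as 3.5 dpt and 9 dpf. NTR stands by convention for nitroreductase, an enzyme that turns the drug MTZ into a cell poison. The transgene was carried by every larva of the study, and the DMSO larvae received the solvent in place of MTZ. A 405-nm laser applied for 30 s converted the labelled cells of the kidney. Roughly 80 larvae made up a pool, and each library came from 50 red cells sorted out of it. Libraries were made with Smart-seq2, a full-length cDNA method without molecular identifiers. The labels do not say that the 3 libraries came from separate pools of larvae, so their spread may be technical. The sorted population is defined by the coro1a promoter and can hold any blood cell type in which that promoter is active. The 3 libraries that received MTZ were not entered.

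The kidney of fish is the organ that makes blood from the larval stage onward, as bone marrow does in mammals, and it holds stem cells, progenitors and mature leukocytes side by side. coro1a encodes coronin-1A, an actin-binding protein of leukocytes. Lymphoid progenitors leave the kidney for the thymus, guided by chemokine receptors such as Cxcr4, which binds Cxcl12, and Ccr9, which binds Ccl25.

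Total estimated counts were 14058382, 16400587 and 14910020 in DMSO 1, DMSO 2 and DMSO 3, and every series of 3 values below keeps that order. Levels are counts per 1000000 of the library total (CPM), and errors are SD with n = 3. A gene was called present at 10 CPM or more. The libraries held 6960, 6960 and 6753 present genes, of 25116 genes with a symbol. A count of 0 allows a level of up to 0.213, 0.183 and 0.201 CPM, the level of 3 counts, which covers counting error only. The values are not divided by gene length, so their order among genes is one of counts and not of transcripts. There is 1 group and no contrast, so no test was made.

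Each library carried genes that were near 0 in the others, and these stand first because they bear on most results. DMSO 1 held genes of skeletal muscle, whose marker list summed to 9839 CPM there against 336 and 509.8 CPM in the other libraries. DMSO 2 was low in some neutrophil genes and in connective tissue genes: the neutrophil lysozyme lyz stood at 3159, 4.63 and 3246 CPM, and the connective tissue list summed to 533, 4.33 and 716 CPM. DMSO 3 held 0 counts of the natural killer-lysin genes nkl.1, nkl.3 and nkl.4, which stood at 119, 134 and 68.7 CPM in DMSO 2. In libraries of pooled cells, fewer cells of a type and less RNA per cell cannot be told apart. The part of these cells, of the sort and of cDNA synthesis in the differences between libraries was not tested.

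Of 5 genes taken as marks of the population, 4 were present in every library, with lyz as the exception. coro1a itself stood at 2354, 2564 and 1538 CPM (2152 ± 542). The chemokine receptor gene cxcr4b stood at 2518, 1407 and 1771 CPM (1899 ± 566), highest in DMSO 1. A second chemokine receptor gene, ccr9a, stood at 1856, 1383 and 1389 CPM (1543 ± 271), with DMSO 2 and DMSO 3 almost level. myb, a transcription factor of blood progenitors, stood at 449, 99.5 and 291 CPM (279.8 ± 175), a range of 4.51-fold with DMSO 2 lowest. A wider list of leukocyte genes, of which 22 were found by symbol, was present nearly whole. The genes cd53, was, vav1 and dock2 were not found by symbol, so their levels are not known. The list also holds cxcr4b and coro1a, the gene whose promoter defined the sorted cells. In it 20 members (90.9%, against 17.3% of all genes) reached 10 CPM or more in all 3 libraries. Among them were lcp1, which encodes the actin-bundling protein L-plastin, at 1633, 2507 and 1384 CPM, and the GTPase gene rac2 at 1317, 1424 and 1147 CPM. The lysosomal membrane gene laptm5 stood at 1024, 1247 and 664 CPM. ptprc, the gene of the pan-leukocyte phosphatase CD45, stood at 80.2, 123 and 16.0 CPM. The exceptions in the list were cd37, a B cell tetraspanin gene, with 0 counts in all 3 libraries, and the phosphatase gene inpp5d, at 127, 41.3 and 7.24 CPM. The list summed to 44839.7, 40909.8 and 29262 CPM, so it was lowest in DMSO 3. Most of each sum came from 1 member, the profilin gene pfn1, at 26687, 24436 and 16205 CPM.

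The genes with the most counts were those of the actin skeleton, mitochondrial respiration, protein synthesis and chromatin. The highest named gene was pfn1, which encodes the actin monomer binding protein profilin, at 26687, 24436 and 16205 CPM (22443 ± 5518). The cytoplasmic actin gene actb2 stood at 15487, 11429 and 10739.9 CPM and its companion actb1 at 8469, 8587 and 5656 CPM. These 3 genes, like arpc1b, a subunit gene of the Arp2/3 complex that branches actin (3531, 2189 and 1871 CPM), were lowest in DMSO 3. Of the 13 genes of mitochondrial DNA, the cytochrome oxidase gene mt-co2 was the highest, at 15466, 14717 and 13475 CPM, and the 13 together took 4.62, 4.44 and 4.35% of the counts. Nuclear genes of the same organelle followed, with the ADP/ATP carrier slc25a5 at 5746, 4355 and 4978 CPM and the ATP synthase subunit atp5f1b at 2212, 2776 and 2381 CPM. The 84 ribosomal protein genes took 9.97, 8.69 and 9.76% of the counts, led by rpl3 at 6538, 5556 and 5744 CPM. The elongation factor eef1a1l1 stood at 8483, 6347 and 7894 CPM.

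Chromatin proteins and chaperones filled most of the remaining places among the 25 highest named genes. hmgn2, which encodes a nucleosome-binding protein, stood at 5372, 5827 and 7023 CPM. The prothymosin alpha gene ptmab was the most even of the 25, at 4619.8, 4629.9 and 4808 CPM, a range of 1.04-fold. hmgb2a, an HMG-box gene of dividing cells, stood at 1971, 3504 and 3212 CPM, and the tubulin gene tubb2b at 2128, 4429.7 and 3349 CPM, both lowest in DMSO 1. The range of tubb2b, 2.08-fold, was the widest of the 25. The constitutive chaperone hspa8 stood at 8304, 5271 and 5757 CPM. Ranked within each library, and with clone names included, the 25 highest genes with a symbol took 17.6, 15.2 and 14.4% of the counts. These 25 were picked anew in each library, so they need not be the 25 of highest mean. In the same ranking 492, 530 and 518 genes were enough to hold 50% of the counts.

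**Figure D1:**
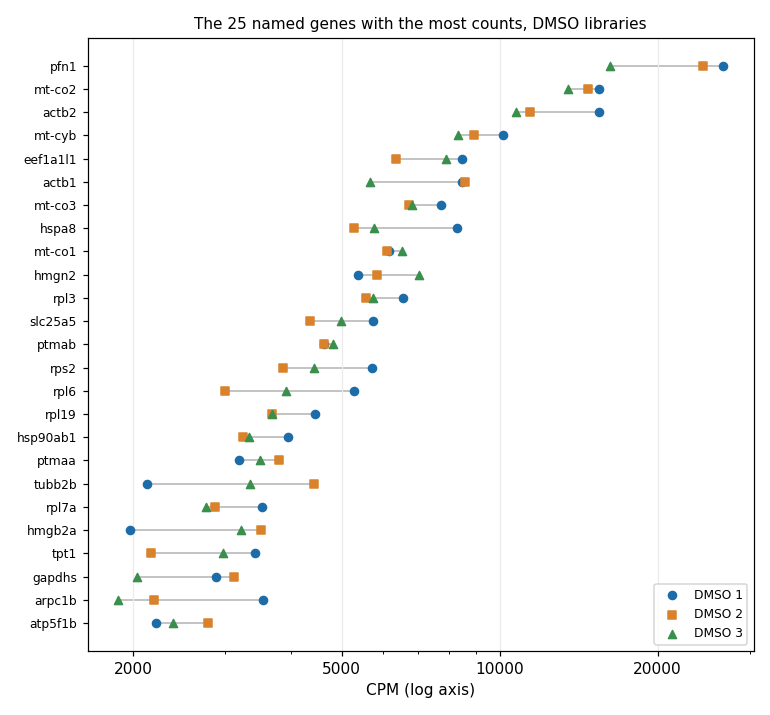
The 25 named genes with the highest mean level, in descending order, with CPM on a log axis and 1 point for each DMSO library. The points of a gene lie close together, from a range of 1.04-fold for ptmab to 2.08-fold for tubb2b.

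The libraries shared far less below this level. Of the 25116 genes with a symbol, 4337 (17.3%) were present in all 3 libraries, and they held 81.9, 85.4 and 84.8% of the counts. Another 1785 (7.11%) were present in 1 library and under 1 CPM in both others, called single-library genes here. There were 13363 genes (53.2%) under 1 CPM in all 3 libraries, and 5631 (22.4%) fell between these classes. Among 7851 genes with a mean of 10 CPM or more, 53.3% differed by over 2-fold between DMSO 1 and DMSO 2, 55.1% between DMSO 1 and DMSO 3, and 52.5% between DMSO 2 and DMSO 3. The share depended on the level. At a mean of 10 to 30 CPM it was between 72.7% and 74.4% in the 3 pairs, and at 1000 CPM or more it was between 2.78% and 5.56%. Genes were kept and grouped by the mean over these same 3 libraries. A gene high in 1 library alone could thus enter, and it differs by construction in the pairs that hold that library. For the ratios, 0.1 CPM was added to each level. The biological coefficient of variation, the spread between libraries beyond counting error as edgeR estimates it, was 0.699 over 5888 genes.

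**Figure D2:**
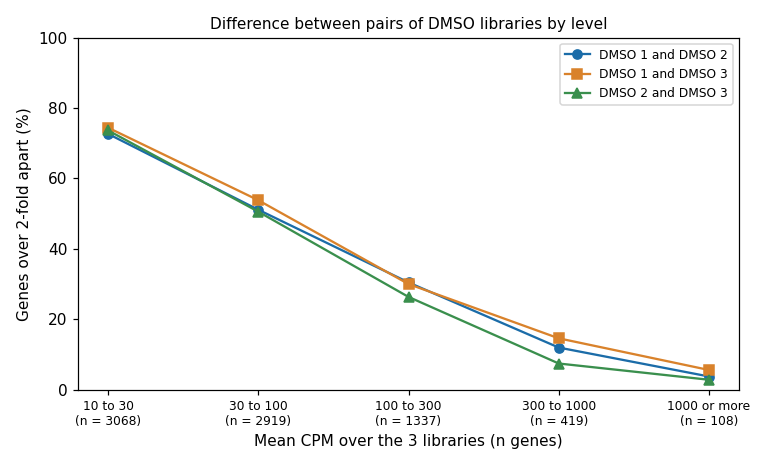
Share of genes that differed by over 2-fold between 2 DMSO libraries (vertical axis, %), by the mean level of the gene over the 3 libraries (horizontal axis, CPM), with 1 line for each pair of libraries. The lines run from between 72.7% and 74.4% at 10 to 30 CPM to between 2.78% and 5.56% at 1000 CPM or more.

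Transcription factors were sought by family name, which gave 842 genes. Of these, 113 (13.4%) were present in all 3 libraries, against 17.3% of all genes. Another 458 (54.4%, near the 53.2% of all genes) were under 1 CPM in each. The highest was xbp1, a factor of the unfolded protein response, at 873, 1024 and 765 CPM. irf8, which directs macrophage fate in zebrafish, followed at 928, 841 and 849.7 CPM, the smallest relative range among the 20 highest factors. The myeloid factor gene cebpb was nearly as even, at 507, 512 and 570.4 CPM. The stress factor gene atf4b stood at 537, 436 and 491 CPM, and max, which encodes the partner of Myc proteins, at 459, 361 and 319 CPM. Immediate early genes were less even. fosab, a component of AP-1, stood at 351, 838 and 898 CPM, and nr4a1, an orphan nuclear receptor, at 74.6, 262 and 263 CPM. egr1 stood at 164, 455 and 244 CPM, so that all of these early genes were lowest in DMSO 1. The clock output gene tefa had the reverse order, with 798, 317 and 350.4 CPM.

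Several of the 20 highest factors, which were taken from those present in every library, are known for a blood lineage, and their levels were unequal. spi1a, 1 of the genes of the myeloid factor PU.1, stood at 228, 374 and 292 CPM. gata3, which T cells and innate lymphoid cells need, stood at 111, 397 and 207 CPM, highest in DMSO 2. runx3, known from cytotoxic lymphocytes in mammals, stood at 159.8, 203 and 429 CPM, highest in DMSO 3. The granulocyte factor gene cebpa stood at 161, 394 and 130.0 CPM, highest in DMSO 2, the library with the least lyz. id3 and id2a, whose proteins block E proteins, stood at 367, 325 and 256 CPM and at 213, 299 and 407 CPM, in opposite orders. The ETS factor fli1b stood at 441, 426 and 140.3 CPM, lowest in DMSO 3, and elf1, of the same family, stood at 159.8, 165 and 292 CPM, highest there. mych, a Myc gene of fish, stood at 430.3, 276 and 527 CPM, and the CREB family gene atf1 at 204, 267 and 147 CPM.

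The families differed in how much of them was present. Of 28 ETS genes 9 were present in all 3 libraries (32.1%), of 19 Ikaros and Bcl11 genes 6 (31.6%) and of 66 bZIP genes 19 (28.8%). The share of all genes was 17.3%. Of 198 homeobox and Pax genes 8 were present in all (4.04%), and 159 (80.3%, against 53.2% of all genes) were under 1 CPM in each library. The interferon, STAT and NF-kB group had 3 of 34 genes in all libraries (8.82%): irf8, stat1a and irf2a. In the same group rel, an NF-kB subunit gene, stood at 116, 160.2 and 0.0671 CPM. Single-library factors numbered 52 (6.18%, against 7.11% of all genes), and 5 of them reached 50 CPM. These were epas1a, a hypoxia factor gene, at 52.9, 0 and 0.0671 CPM, and isl1, a homeobox gene, at 50.1, 0 and 0 CPM. elf2a, an ETS gene, stood at 0.142, 59.8 and 0.134 CPM. smad1, which carries BMP signals, stood at 0, 0 and 76.1 CPM, and rxrba, a retinoid X receptor gene, at 0, 0.549 and 55.3 CPM.

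**Figure D3:**
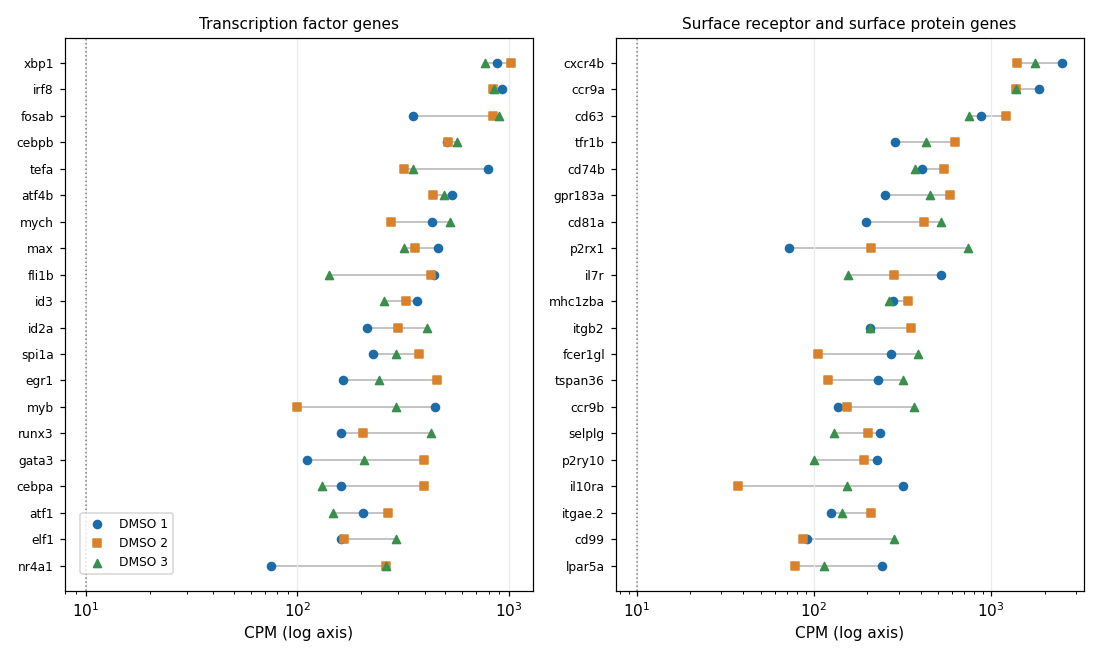
The 20 transcription factor genes (left) and the 20 surface receptor and surface protein genes (right) with the highest mean level among those present in all 3 DMSO libraries, with CPM on a log axis, 1 point for each library and a dotted line at 10 CPM. irf8 and cebpb have almost coinciding points, while p2rx1 spans 72.1 to 740.2 CPM and myb 99.5 to 449 CPM.

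Surface receptors and other surface proteins numbered 655 by family name. Of these, 50 (7.63%, against 17.3% of all genes) were present in all 3 libraries. Another 390 (59.5%, against 53.2% of all genes) were under 1 CPM in each. The receptors above all others were cxcr4b and ccr9a, whose levels are given with the marker genes. The second Ccr9 gene, ccr9b, stood at 136, 154 and 366 CPM, highest in DMSO 3. cxcr3.2, a receptor gene for inflammatory chemokines, stood at 75.2, 151 and 197 CPM. These 4 were the chemokine receptor genes present in all libraries, of 27 sought (14.8%, near the 17.3% of all genes). Another 7 (25.9%, against 7.11% of all genes) were single-library genes. A further 12 (44.4%, against 53.2% of all genes) were under 1 CPM in each. Among the single-library ones were the homing receptor ccr7, at 87.8, 0.061 and 0.0671 CPM, the Cxcl12-scavenging receptor ackr3a, at 63.1, 0.061 and 0.335 CPM, and ccr10, at 60.8, 0 and 0 CPM. All 3 came from DMSO 1, as did cmklr1, a receptor of macrophages, at 129.9, 0.122 and 0 CPM and s1pr4, a sphingosine phosphate receptor gene, at 90.3, 0.061 and 0 CPM. DMSO 1 alone also held cd22, a receptor gene of B cells in mammals, and cd248b, at 50.4 and 53.1 CPM, each with 0 counts elsewhere. The sole single-library receptor at 50 CPM outside DMSO 1 was the Wnt receptor gene fzd7b, at 0, 0.061 and 59.4 CPM. Single-library receptors numbered 67 in all (10.2%, against 7.11% of all genes).

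Cytokine receptor genes were present in all libraries in 9 of 48 cases (18.8%, near the 17.3% of all genes). il7r, whose protein lymphoid progenitors and T cells need, was the highest at 523, 283 and 156 CPM, a range of 3.36-fold. il10ra, a chain of the interleukin-10 receptor, stood at 316, 37.1 and 153 CPM, lowest in DMSO 2. The interferon-gamma receptor gene ifngr2 was even, at 115, 105 and 127 CPM, and il21r.1 was not, at 150, 53.7 and 17.4 CPM. csf1rb, a receptor gene for macrophage growth factor, stood at 159.8, 48.0 and 191 CPM. Receptors of Notch, TGF-beta, Wnt and tyrosine kinase type were the least represented. The sole member of 95 present in all libraries (1.05%) was notch2, at 124, 62.8 and 143 CPM. Single-library genes of this type numbered 13 (13.7%, against 7.11% of all genes).

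Other surface genes marked several leukocyte classes at once. The tetraspanin gene cd63, of granules and endosomes, stood at 875, 1213 and 752 CPM, and cd81a at 197, 416 and 524 CPM. tfr1b, a transferrin receptor gene, stood at 288, 624 and 428 CPM. cd74b, whose protein guides MHC class II, stood at 405, 544 and 373 CPM, and the class I gene mhc1zba at 279, 337 and 266 CPM. gpr183a, a receptor for oxysterols that guides lymphocytes and dendritic cells in mammals, stood at 252, 582 and 453 CPM. The integrin chain itgb2 stood at 206, 353 and 208 CPM, and itgae.2 at 124, 209 and 144 CPM. selplg, the gene of a selectin ligand, stood at 235, 202 and 129 CPM. The widest range of the 20 highest receptors was that of p2rx1, an ATP-gated channel gene, with 72.1, 209 and 740.2 CPM. fcer1gl, an Fc receptor chain gene, stood at 272, 106 and 388 CPM, and the tetraspanin gene tspan36 at 229.9, 120.2 and 316 CPM, both lowest in DMSO 2. cd99, an adhesion gene of leukocyte passage through vessel walls, stood at 91.1, 87.1 and 281 CPM, highest in DMSO 3. Of receptors for lysophospholipids, p2ry10 stood at 225, 192 and 100.3 CPM and lpar5a at 242, 78.3 and 113 CPM, both highest in DMSO 1.

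Factors and receptors were less even than genes as a whole. Among those with a mean of 100 CPM or more that were present in all 3 libraries, 16 of 44 factors (36.4%) and 10 of 28 receptors (35.7%) kept a range of at most 2-fold, against 1071 of 1826 genes (58.7%). At a mean of 10 CPM or more the gap was smaller: 39 of 113 factors (34.5%) and 15 of 50 receptors (30%), against 1901 of 4337 genes (43.8%). Evenness depended on the level, and the sets were not matched by level. The difference is a description over genes and was not tested.

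Many zebrafish genes exist as a and b copies left by a genome duplication. The factor and receptor sets held 298 pairs of symbols that differ in the last letter only. Both copies were present in all libraries in 13 pairs, among them spi1, fli1, ccr9, cd74 and gpr183. In 125 pairs both copies were under 1 CPM in each library. In 17 pairs 1 copy was present in all libraries and the other was under 1 CPM in each. Over all genes, 17.3% were present in all libraries and 53.2% were under 1 CPM in each. How often unrelated genes would pair in this way was not tested. The Cxcr4 pair is among these 17: cxcr4a stood at 0.142, 0.061 and 0 CPM beside the cxcr4b levels given above. The T-box gene eomesa stood at 238, 58.5 and 95.8 CPM, and eomesb at 0, 0 and 0.134 CPM. stat1a, a factor of interferon signalling, stood at 382, 83.6 and 82.5 CPM, highest in DMSO 1, and stat1b had 0 counts throughout. mrc1b, a mannose receptor gene, stood at 134, 176 and 103 CPM with mrc1a at 0 counts, and klf6a stood at 62.0, 69.8 and 77.8 CPM with klf6b at 0 counts. nfe2l2a, a factor of the oxidative stress response, stood at 107, 95 and 131 CPM, and its b copy had 0 counts. The other pairs were those of etv5a, id2a, mef2aa, nr2f6a, rarga, rxraa, zbtb16a, zhx2a, cd81a, cd9a and ptprea, whose b copies had 0 counts except for etv5b at 0.925, 0 and 0.939 CPM. Reads of close copies can be split or merged by the counting, which the sources used here do not describe.

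Of 18 lymphoid progenitor genes 9 were present in all 3 libraries (50%, against 17.3% of all genes), and the list summed to 3079, 2819.8 and 3297 CPM, led by ccr9a. ikzf1, the Ikaros gene, stood at 172, 123 and 196 CPM. The antigen receptor recombinase genes were uneven: rag1 stood at 2.63, 74.2 and 398 CPM and rag2 at 19.0, 394 and 146 CPM. Both were thus lowest in DMSO 1, and the library with the most rag1 was not the one with the most rag2. bcl11ba, a factor that commits cells to the T lineage, stood at 8.75, 17.5 and 191 CPM, highest in DMSO 3 like rag1. hells, a chromatin remodeller gene of lymphoid proliferation, stood at 128, 223 and 329 CPM.

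Of 24 T cell genes 10 were present in all 3 libraries (41.7%, against 17.3% of all genes). Another 6 (25%, against 53.2% of all genes) were under 1 CPM in each. The list shares il7r, rag1, rag2 and bcl11ba with that of lymphoid progenitors, and of these il7r and rag2 were present in all libraries. The kinase gene lck stood at 116, 103 and 243 CPM, the adaptor sla2 at 208, 284 and 321 CPM and the kinase itk at 64.9, 38.8 and 62.6 CPM. themis, a gene of T cell selection, stood at 86.9, 166 and 46.1 CPM, and zap70, the T cell receptor kinase gene, at 11.2, 112 and 16.4 CPM. cd4-1, cd4-2.2, cd8a, foxp3b and cd27 had 0 counts in all 3 libraries, and cd8b stood at 0, 2.26 and 0 CPM. Other T cell genes, among them cd3e, cd247, trac, trbc1 and cd4-2.1, were not found by symbol, so their levels are not known. Of 19 B cell genes 12 were under 1 CPM in each library (63.2%, against 53.2% of all genes). The antigen receptor chains cd79a and cd79b, the factor pax5 and the immunoglobulin genes ighd and ighz had 0 counts in all 3 libraries. The immunoglobulin gene ighm was not found by symbol. The 2 B cell list members present in all libraries were the kinase genes syk, at 382, 338 and 146 CPM, and btk, at 37.4, 107 and 101 CPM. Myeloid cells also use both.

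Natural killer and innate lymphoid genes differed most sharply between the libraries among the lymphoid lists. Their list of 29 summed to 899, 1732 and 341 CPM. In the single libraries 8, 15 and 7 of its members were present, beside 6960, 6960 and 6753 of all 25116 genes. Members present in all libraries numbered 3 (10.3%, against 17.3% of all genes), and 4 were single-library genes (13.8%, against 7.11% of all genes). ccl36.1, a chemokine gene, stood at 363, 543 and 0.268 CPM. il13, a type 2 cytokine gene, stood at 0.285, 491 and 13.9 CPM. The killer-lysin genes were, like ccl36.1, highest in DMSO 2 and lowest in DMSO 3, with nkl.3 at 3.63, 134 and 0 CPM, nkl.1 at 9.53, 119 and 0 CPM, and nkl.4 at 8.54, 68.7 and 0 CPM. The members present in all libraries were eomesa, whose levels are given among the copy pairs, rorc, a factor of type 3 lymphoid cells in mammals, at 133, 61.6 and 102 CPM, and il2rb, an interleukin-2 receptor chain, at 48.3, 36.3 and 23.4 CPM.

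Of 21 neutrophil genes 7 were present in all 3 libraries (33.3%, against 17.3% of all genes), and 12, 10 and 13 were present in the single libraries. srgn, the gene of a granule proteoglycan, stood at 975, 1038 and 1081 CPM, and 2 subunit genes of the phagocyte oxidase were present throughout, cyba at 183, 307 and 337 CPM and ncf1 at 172, 121 and 129.8 CPM. Other members differed more. Beside lyz, the gene of the granule protease npsn stood at 411, 0.305 and 48.4 CPM, the myeloid peroxidase gene mpx at 79.3, 0.061 and 72.6 CPM, and lect2l, a leukocyte chemotactic factor gene, at 158, 12.4 and 255 CPM. Each was lowest in DMSO 2. cpa5, a carboxypeptidase gene used as a mast cell marker in zebrafish, stood at 317, 0.488 and 451 CPM. The mast and eosinophil list of 11 had 1 member present in all libraries (9.09%, against 17.3% of all genes). This was fcer1gl, lowest in DMSO 2 like cpa5. In the same list 6 members (54.5%, near the 53.2% of all genes) were under 1 CPM in each library. mitfa, at 0, 35.8 and 7.98 CPM, and alox5a, at 0, 24.8 and 0 CPM, were instead highest in DMSO 2. The neutrophil chemokine receptor genes cxcr1 and cxcr2 had 0 counts in all 3 libraries.

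Of 36 macrophage genes 16 were present in all libraries (44.4%, against 17.3% of all genes), and the list summed to 5152, 4145 and 4264 CPM. Its highest members were cd63, irf8, cd74b and spi1a, whose levels are given above. Of these, cd63, cd74b and spi1a were highest in DMSO 2, so the sums hide members that were lowest there. mpeg1.1, the perforin-like gene of macrophages, stood at 521, 126 and 243 CPM, and mfap4 at 114, 88.8 and 337 CPM. The complement gene c1qc stood at 93.5, 33.8 and 74.8 CPM, while c1qb stood at 28.1, 0.183 and 39.8 CPM. havcr1, a phosphatidylserine receptor gene, had the same gap, with 120, 0.122 and 68.9 CPM. csf1ra, the second receptor gene for macrophage growth factor, stood at 44.5, 0.183 and 1.95 CPM. DMSO 2 held 18 present members of this list, against 26 in DMSO 1 and 23 in DMSO 3. Of 12 dendritic cell genes 1 was present in all libraries (8.33%, against 17.3% of all genes), id2a, which other leukocytes also use. The chemokine receptor gene xcr1a.1, which marks cross-presenting dendritic cells in mammals, stood at 24.4, 0.061 and 31.1 CPM, and the maturation gene cd83 at 5.48, 40.1 and 11.5 CPM.

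**Figure D4:**
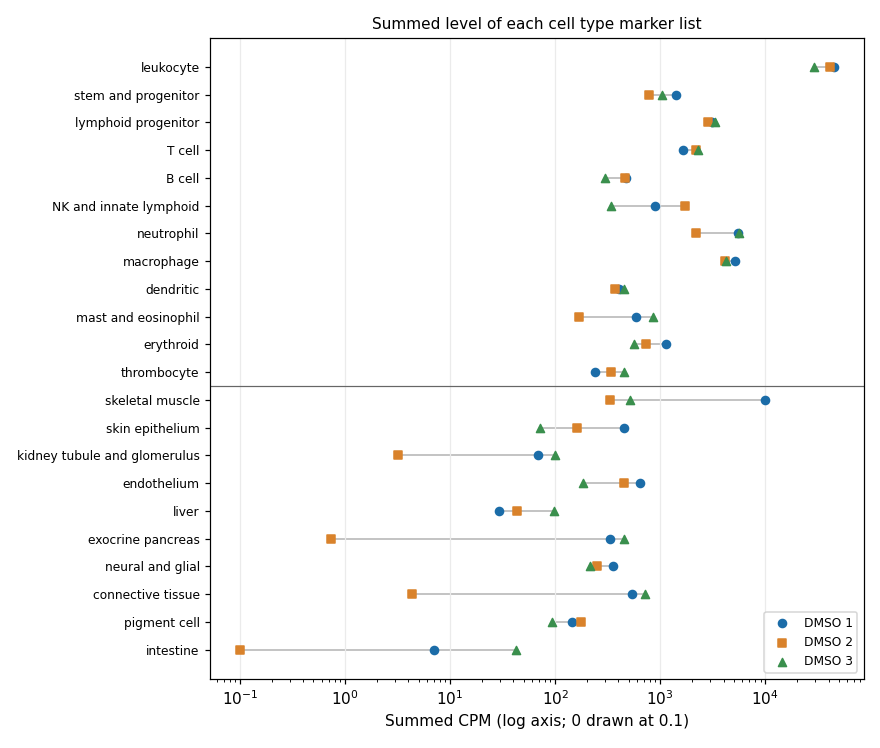
Summed level of each marker list in each DMSO library, with CPM on a log axis. Blood cell lists stand above the horizontal line and other cell types below it, and a sum of 0 is drawn at 0.1. Lymphoid progenitor, T cell and macrophage sums lie close together, although single members such as rag1 and mpeg1.1 differ more. DMSO 1 stands apart in skeletal muscle (9839 against 336 and 509.8 CPM) and DMSO 2 in connective tissue (4.33 against 533 and 716 CPM).

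Of 22 stem cell and early progenitor genes 4 were present in all 3 libraries (18.2%, near the 17.3% of all genes): egr1, myb, lmo2 and fli1a. lmo2, a bridging protein gene of blood stem cells, stood at 207, 66.5 and 108 CPM, and the ETS factor gene fli1a at 128, 43.4 and 117 CPM. tal1, the partner of Lmo2, stood at 104, 0.244 and 47.2 CPM, and the homeobox gene meis1b at 63.2, 0.061 and 118 CPM. Both thus reached 10 CPM in DMSO 1 and DMSO 3 and were near 0 in DMSO 2. gata2b, which marks blood-forming endothelium and stem cells, stood at 102, 26.0 and 0 CPM, and runx1 at 16.0, 7.50 and 6.64 CPM. gata2a, kitb and erg had 0 counts in all 3 libraries. The list summed to 1403, 783 and 1045 CPM. Of this the immediate early gene egr1 gave 164, 455 and 244 CPM, which is most of the sum in DMSO 2.

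Of 37 erythroid genes 3 were present in all libraries (8.11%, against 17.3% of all genes). The embryonic globin gene hbae1.3, under its higher gene ID, stood at 479.8, 454 and 290.3 CPM and gave most of the 506, 459 and 311 CPM of the 15 globin genes. The heme synthesis gene alas2 and the globin genes hbba1 and hbaa1 had 0 counts in all 3 libraries. rhag, an ammonium channel gene of red cells, stood at 50.5, 51.2 and 35.5 CPM. Of 20 thrombocyte genes 4 were present in all (20%, near the 17.3% of all genes), among them the platelet glycoprotein gene gp9, at 15.9, 20.2 and 25.2 CPM, and the factor gene nfe2, at 18.4, 46.1 and 26.6 CPM. itga2b, the integrin gene CD41, stood at 1.71, 0.061 and 0.134 CPM.

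**Figure D5:**
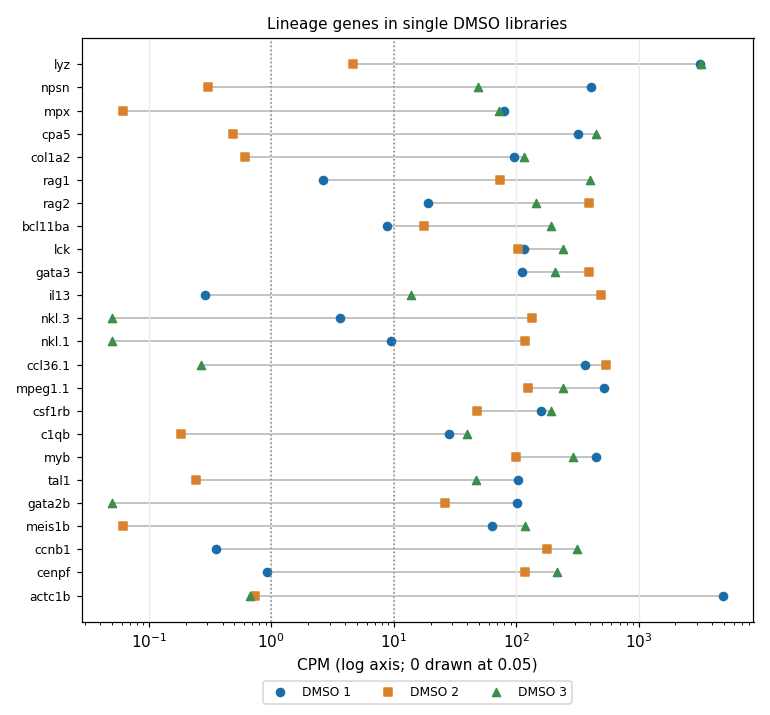
Levels of 24 lineage and cell cycle genes, chosen after their values were seen, with CPM on a log axis and 1 point for each DMSO library. Dotted lines mark 1 and 10 CPM, and 0 is drawn at 0.05. Points of 1 library fall far to the left for lyz, npsn, mpx and cpa5 (DMSO 2), for the nkl genes and ccl36.1 (DMSO 3) and for ccnb1 and cenpf (DMSO 1).

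Cell cycle genes were widely shared. Of 48 listed, 35 were present in all 3 libraries (72.9%, against 17.3% of all genes), and the sums were 10519, 15313 and 14152 CPM. pcna, the DNA polymerase clamp, stood at 1412, 1991 and 1193 CPM, the helicase subunit mcm3 at 290, 299 and 349 CPM and the cyclin gene ccna2 at 210, 206 and 193 CPM. Some members were lowest in DMSO 1 by a wide margin, and the 4 given here were chosen after their values were seen. mki67 stood at 73.5, 252 and 285 CPM, the mitotic cyclin ccnb1 at 0.356, 177 and 311 CPM, the kinetochore gene cenpf at 0.925, 119 and 217 CPM, and the spindle gene tpx2 at 0.142, 87.4 and 167 CPM. The library with the least of these was also the one with the muscle genes, and it still held 37 present members of the list, against 40 and 41.

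Single-library genes divided almost evenly by number and had similar medians, but their share of the counts was largest in DMSO 1. There were 659 (2.62%) in DMSO 1, 563 (2.24%) in DMSO 2 and 563 (2.24%) in DMSO 3, with medians of 23.0, 22.9 and 22.2 CPM in the library that held them. They took 2.70, 1.59 and 1.49% of that library's counts. In DMSO 1 the 8 highest were all genes of striated muscle, led by the actin gene actc1b at 4885, 0.732 and 0.671 CPM and the parvalbumin gene pvalb2 at 810.5, 0.183 and 0 CPM. They included the myosin light chain mylpfa, at 584, 0.061 and 0.0671 CPM, and the creatine kinase ckmb, at 523, 0.244 and 0.0671 CPM. Of 36 muscle genes listed 17 were single-library genes (47.2%, against 7.11% of all genes). The same library alone held the skin keratin genes krt91, krt4 and krt5, at 142, 93.4 and 77.3 CPM, each with 0 counts in the other libraries.

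Of the 8 highest single-library genes of DMSO 2, only thbs1b belonged to a marker list, that of thrombocytes. This thrombospondin gene stood at 0.0711, 118 and 0.0671 CPM. The highest were polr3c, an RNA polymerase III subunit gene, at 0.0711, 139 and 0.0671 CPM, ca8, of the carbonic anhydrase family, at 0.142, 134 and 0.0671 CPM, and rnf180, a ubiquitin ligase gene, at 0, 125 and 0 CPM. In DMSO 3 they were led by the inducible heat shock gene hsp70.3, at 0, 0.122 and 163 CPM, and by lgals3bpb, a galectin-binding protein gene, at 0.0711, 0.061 and 156 CPM. The matrix proteoglycan genes aspn and ogna stood at 0.0711, 0 and 120.3 CPM and at 0, 0 and 117 CPM. Collagen genes were shared by DMSO 1 and DMSO 3, with col1a2 at 95.6, 0.610 and 116 CPM and col1a1b at 78.9, 0 and 132 CPM. Members of the connective tissue list present in the libraries numbered 11, 0 and 12 of 22, beside 6960, 6960 and 6753 of all 25116 genes. Of 26 genes of kidney tubule and glomerulus 21 were under 1 CPM in each library (80.8%, against 53.2% of all genes). The list summed to 68.0, 3.17 and 100.1 CPM. mafba, which the macrophage list also holds, gave 24.9, 3.05 and 71.7 CPM of these sums, most of them in DMSO 2 and DMSO 3.

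The other lists of cells outside the blood rested on few genes. Endothelial genes summed to 638, 447 and 185 CPM, most of it fli1b, and kdrl, a vessel growth factor receptor gene, stood at 33.3, 0 and 0 CPM. The exocrine pancreas list summed to 329, 0.732 and 456 CPM, nearly all of it cpa5, which the mast cell list also holds, and the trypsin gene prss1 stood at 0, 0.061 and 0.469 CPM. Neural and glial genes summed to 353, 252 and 215 CPM, most of it mbpb, a myelin basic protein gene, at 271, 158 and 123 CPM. Pigment cell genes summed to 144, 174 and 92.9 CPM, most of it paics, an enzyme gene of purine synthesis that dividing cells use as well. Liver genes summed to 29.1, 43.0 and 98.0 CPM, with the retinol carrier rbp4 the highest at 17.9, 8.78 and 76.4 CPM, and intestine genes to 7.04, 0 and 42.5 CPM. In the skin list, krt8 was the sole gene present in all libraries, lowest in DMSO 3 at 42.3 CPM, and in the muscle list eno3, an enolase gene, gave most of the sums of DMSO 2 and DMSO 3, at 199, 295 and 398 CPM.

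Ligands of blood-forming and immune tissue were counted in the same cells. Of 60 ligand genes 34 were under 1 CPM in each library (56.7%, near the 53.2% of all genes). Another 2 were present in all (3.33%, against 17.3% of all genes) and 11 were single-library genes (18.3%, against 7.11% of all genes). Those present in all were il16, a lymphocyte chemoattractant, at 73.4, 168 and 111 CPM and the lymphocyte cytokine gene il21 at 31.8, 46.0 and 14.5 CPM. The Cxcr4 ligand genes stood low, cxcl12a at 9.10, 0 and 10.3 CPM and cxcl12b at 0, 0 and 15.1 CPM. Of the Ccr9 ligand genes, ccl25b stood at 0.213, 0.061 and 29.6 CPM and ccl25a had 0 counts. The growth factor genes kitlga, kitlgb, csf1a, csf3a, thpo and epoa had 0 counts in all 3 libraries. il34, which also binds the macrophage growth factor receptor, stood at 22.1, 32.9 and 7.58 CPM. The inflammatory cytokine gene il1b stood at 0, 33.2 and 30.8 CPM, and tnfb at 27.0, 43.4 and 4.23 CPM. Genes held by 1 library included the interleukin-15 gene il15, at 0, 33.2 and 0 CPM, the interferon gene ifnphi1, at 0, 28.8 and 0.0671 CPM, the Notch ligand gene dll4, at 0, 0.061 and 35.3 CPM, and the vessel growth factor gene vegfaa, at 0.0711, 0 and 46.6 CPM. The osteoclast factor gene tnfsf11 stood at 0.0711, 23.4 and 0 CPM and the type 2 cytokine gene il4 at 0, 0.061 and 22.3 CPM, while il13 was highest in DMSO 2. bmp2b, a BMP ligand gene, stood at 31.4, 0 and 1.27 CPM, the lipase inhibitor gene angptl4 at 52.9, 0.122 and 0 CPM, and tgfb3 at 18.1, 0 and 29.0 CPM.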

How the data were processed

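Smart-seq2 libraries of sorted larval kidney cells were counted per gene. The authors deposited 1 table of estimated counts, not scaled to a common total. HISAT2 and GRCz11 are named per the submitters' processing notes. How reads were counted, with which annotation and whether by strand, is not given in the sources used here. In a DMSO library 8.32 to 9.17% of values above 0 had decimals, and all were rounded to whole counts. All 27314 rows entered the library totals. The 1913 rows without a symbol took 2.83 to 5.21% of the counts. Classes were counted over the 25116 Ensembl rows with a symbol. Symbols came from the table, and overlapping or antisense genes and close copies are uncertain.

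CPM was computed on the library total with pandas 2.3.3 and numpy 2.4.6 (Python 3.11.15). edgeR 4.0.16 (R 4.3.3) gave TMM factors and the biological coefficient of variation, and DESeq2 1.42.0 gave size factors, both without a test. The largest counting interval of a share of counts (95%, Wilson) was 0.0239 percentage points to each side and covers counting error only. Class counts and the coefficient of variation were checked on simulated counts. The simulated class genes lay well above the presence threshold, with counting error only, and single-library ones had no counts elsewhere. That check thus does not cover genes near the thresholds or the spread between these libraries. No pair of libraries was a duplicate: 4 to 7 genes had equal counts.

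The members and the lists were chosen with earlier results of these data known. The rule named the 5 markers, the 25 highest genes, the 20 highest factors and receptors present in all libraries, the 8 highest single-library genes of each library, single-library factors and receptors at 50 CPM, the 4 highest members of each list, ligands at 10 CPM and copy pairs, 215 genes in all. Other genes named from the lists were chosen after their values were seen. Gene families and lists were matched by symbol. Of 654 list terms 59 were not found, and symbols that a family pattern caught wrongly, and symbol pairs that are not copies, were removed after values were seen. No coding lengths were used here, so the planned levels per kb, the 10 highest genes per kb and copy levels per kb are not given. Alternatives were other presence and absence thresholds, TMM and DESeq2 scaling, thinning to an equal total, inclusion of all rows, leaving out the lists of other cell types, no filter or a stricter filter for the coefficient of variation, a fold of 4, and each library left out.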

Additional observations from a re-analysis of the deposited data

How the results depend on the processing

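Scaling changed the class counts little, and the presence threshold changed them more. Genes present in all 3 libraries numbered 4337, and 4917 and 3490 at thresholds of 5 and 20 CPM, 4342 with TMM, 4343 with DESeq2 size factors, and 5029 to 5180 with each library left out. Single-library genes numbered 1785, but 1044 at 20 CPM, 2348 at 5 CPM and 2326 to 2462 with each library left out. With a library left out, both classes ask about the remaining libraries only, so those counts are of looser classes. Copy pairs with 1 copy present and the other near 0 numbered 17, but 11 at 20 CPM. The share of genes that differed by over 2-fold, 53.3% as the median of the 3 pairs, was 33.5% at a fold of 4. The coefficient of variation was 0.699, 1.78 with no filter on low counts, 0.497 over genes at 10 CPM in all 3 libraries, and 0.705 to 0.725 with each library left out. TMM scaling left the means of the 215 named genes and the sums of the 47 lists within the spread between libraries. The TMM factors were 0.948, 1.04 and 1.01, so this outcome was almost fixed in advance and is no check of robustness. Genes between 1 and 10 CPM are in neither class. No paired analysis was possible because only the DMSO libraries entered and they form 1 group.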

Other observations

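Some genes reached 10 CPM in 2 libraries and were under 1 CPM in the third. There were 1346 of them (5.36% of genes), with DMSO 1 lacking 445, DMSO 2 lacking 422 and DMSO 3 lacking 479. The highest of these in DMSO 2 was ctsl.1, a cathepsin L gene, at 2354, 0.427 and 60.6 CPM. In DMSO 2 the amine oxidase gene aoc2 also stood near 0, at 83.2, 0.549 and 558 CPM, as did the annexin gene anxa3b, at 169, 0.061 and 163 CPM. The complement factor D gene cfd stood at 0.569, 134 and 1120.0 CPM, near 0 in DMSO 1 and highest in DMSO 3. In DMSO 3 the gene ufd1l, of protein degradation, stood at 171, 94.0 and 0 CPM.

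Of the loci without a symbol, the one with the most counts stood at 35269, 9502 and 12451 CPM, above pfn1 in DMSO 1 and below it in the other libraries. The next locus without a symbol stood at 4391, 4449.5 and 9318 CPM. The assembled loci that carry the name pol, 8 in number, summed to 7966, 7839 and 7592 CPM, a far smaller spread between libraries. Neither the sequence nor the position of these loci was used here.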
